A study of Mus musculus with 4 samples.

Results

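CD41low/CD9low HSCs are hematopoietic stem cells of mouse bone marrow that carry little of the surface proteins CD41 and CD9, and the data compared such cells with and without Gfi1b. Their members were the 2 libraries whose labels name this population, 1 WT and 1 KO, of 4 libraries in the series. The other 2 libraries came from WT and KO HSCs sorted as Lin- cKit+ Sca1+ Cd48- CD150+ cells, for which the labels and the sort description name no CD41 or CD9 gate, although the study's results call the cells set beside the CD41low/CD9low HSCs CD41+/CD9+ HSCs. All mice were of the C57Bl6 strain, and cells came from tibiae, femora and humeri. The KO library came from mice whose Gfi1b alleles are flanked by loxP sites and which carry a tamoxifen-inducible Cre at the Rosa26 locus, where it is active in most tissues and not in blood cells alone. The methods give the controls as mice with Rosa-Cre, 1 floxed and 1 wild-type allele, whereas the design text gives them as floxed mice that lack Cre. Tamoxifen had been given before analysis, and marrow of several mice was pooled before sorting, with more control than KO mice. The methods describe the mice of all experiments as matched for age and sex, but the sources used here give neither the age nor the sex. With 1 library per genotype, no difference below has a replicate check, and no test between the genotypes was possible.

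Gfi1b is a zinc finger protein that represses transcription by recruiting the histone demethylase LSD1 (Kdm1a) and CoREST proteins (Rcor1 to Rcor3) through its SNAG domain. It is needed for red cell and megakaryocyte formation and restrains the expansion of stem cells in the marrow. Its paralog Gfi1 binds the same DNA motif, which has the core AATC, and is known for its part in stem cell quiescence and in the formation of neutrophils. Both genes are known to be repressed by their own products. CD41 (Itga2b) is a platelet integrin subunit, and CD9 is a tetraspanin of platelets and stem cells. Both are abundant on megakaryocytes.

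The promoters of Gfi1b and Gfi1 are shown because both genes had higher counts in the KO library and both encode proteins that bind AATC. The sequences are the 250 bases before the annotated start in the RefSeq promoter table for GRCm38.p6, 5′ to 3′ on the strand of the gene, with AATC and its reverse complement GATT in capitals. Gfi1b lies on the minus strand and its stretch is chr2:28621983-28622232. Gfi1 also lies on the minus strand, and the first of its 2 listed starts has the stretch chr5:107725806-107726055. Most of this stretch, its match included, lies inside the gene as the GENCODE M21 annotation places it, 107716657 to 107726036. The annotations thus differ on where Gfi1 starts.
Gfi1b: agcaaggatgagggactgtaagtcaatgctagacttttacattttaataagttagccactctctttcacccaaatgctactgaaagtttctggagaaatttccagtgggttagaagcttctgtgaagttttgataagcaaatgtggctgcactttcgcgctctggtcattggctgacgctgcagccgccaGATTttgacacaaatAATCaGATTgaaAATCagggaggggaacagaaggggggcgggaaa
Gfi1: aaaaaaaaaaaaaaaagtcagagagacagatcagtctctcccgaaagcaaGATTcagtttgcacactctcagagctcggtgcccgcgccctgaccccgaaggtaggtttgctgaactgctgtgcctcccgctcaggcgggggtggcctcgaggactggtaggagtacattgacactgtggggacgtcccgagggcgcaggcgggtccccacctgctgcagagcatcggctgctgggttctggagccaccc
The Gfi1b stretch held 4 matches within its last part, close to the start, and the stretch of Gfi1 held 1. Over all promoter windows of 300 bases, 73.1% of 32851 held AATC or GATT, and 35.9% held the longer AAATC or its complement GATTT, which contains the shorter match. Of the windows of the 12 genes with the highest ratios described below, 11 of 13 held AATC or GATT, against 13 of 14 windows of the 12 genes with the lowest ratios. A match is a description of the letters and not a bound site. Lgals1 and Slc4a1 have no entry in that table.

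The WT library held 12732079 counts on genes and the KO library 19123185, and 3 counts, taken as the least a library can show, were 0.236 and 0.157 CPM, counts scaled to the library total. The HSC libraries held 50781007 and 41690708 counts and were counted on another gene list, with 37140 genes in common. Sequencing depth was scaled out with size factors (the median of ratios over genes), whose KO/WT ratio was 1.5, so a gene at equal levels had 1.5 times as many raw counts in KO. Each gene has a KO/WT ratio of normalized counts and, in parentheses, a 95% interval from the exact binomial (Clopper-Pearson) limits of its KO share, which covers counting error only. A gene was called higher at a ratio above 1.5 with the interval above 1, and lower at a ratio below 0.6 with the interval below 1. Where 1 library had 0 counts, the ratio was bounded by setting that library to 3 counts. Of 14844 genes with at least 10 counts in 1 of the libraries, 1756 (11.8%) were called higher and 1674 (11.3%) lower, and the median over all of them was 0.01 on the log2 scale. In the HSC pair, 2007 of 15910 genes (12.6%) were called higher and 1349 (8.48%) lower.

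The share of genes called depended strongly on abundance, which limits what a call on a rare transcript shows. Among 1935 genes with a mean under 20 normalized counts, 36.5% were called higher and 32.7% lower. Between 100 and 200 normalized counts the shares were 17.3% and 16.2%, and between 500 and 1000 they were 3.25% and 0.954%. Among the 4050 genes with a mean of at least 1000, 52 (1.28%) were called higher and 12 (0.296%) lower. There were 365 genes with at least 10 counts in WT and 0 in KO, and 547 with at least 10 in KO and 0 in WT, although the interval of a count of 10 against 0 lies wholly on 1 side of 1. The cause of this pattern was not tested, and the abundance of each gene is given with its counts below.

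**Figure D1:**
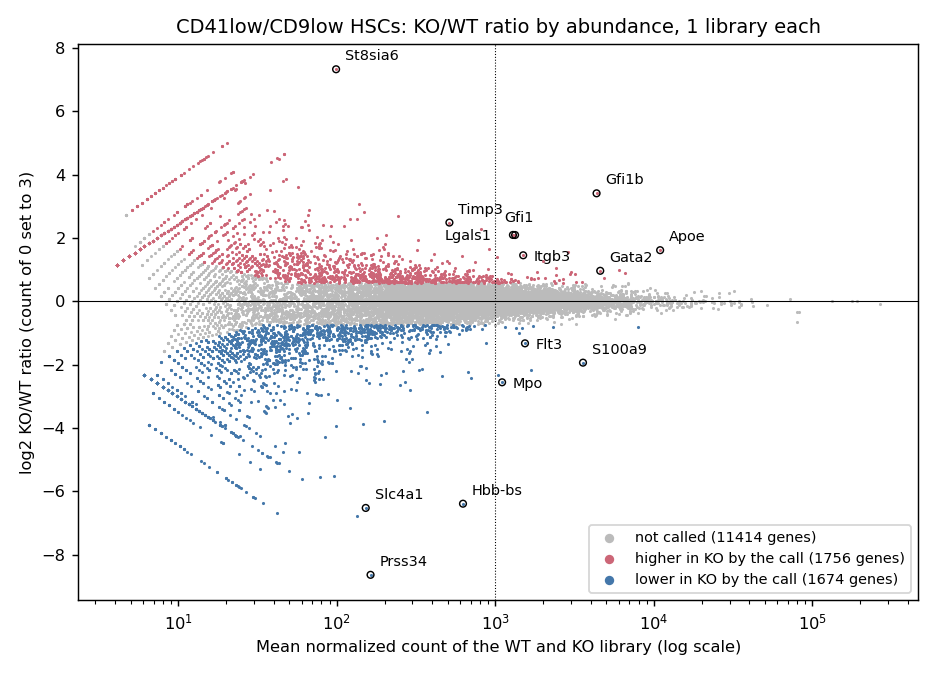
Mean normalized count (horizontal, log scale) against log2 KO/WT ratio (vertical) for the 14844 genes of the CD41low/CD9low HSC pair, 1 library per genotype, with genes called higher in red and lower in blue. The cloud narrows from left to right, and right of the dotted line at a mean of 1000 the genes with high ratios include Gfi1b, Gfi1, Lgals1, Apoe and Itgb3, and those with low ratios Mpo, S100a9 and Flt3.

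Gfi1b itself (ENSMUSG00000026815, chromosome 2, 28609450 to 28621982, GRCm38) had 611 counts in WT and 9741 in KO, a KO/WT ratio of 10.6 (9.79 to 11.6). In HSCs its counts were 9256 and 49910, a ratio of 6.66. The deleted segment holds only part of the gene, and a count over the whole gene includes the remaining exons, so it checks neither the deletion nor the label. According to the study, the floxed exons were not expressed in megakaryocytes and HSCs after deletion. WT and KO below are the labels of the libraries. The titles of the samples write Gfi1 where the genotype field writes Gfi1b. Gfi1 (ENSMUSG00000029275, chromosome 5, 107716657 to 107726036) had 413 counts in WT and 2643 in KO, a ratio of 4.27 (3.84 to 4.74). In HSCs its counts were 567 and 4394, a ratio of 9.56.

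The partners of Gfi1b in repression changed far less. Of the 18 genes of the corepressor list, 3 were called higher and 0 lower, against 11.8% and 11.3% of all genes. Gfi1b and Gfi1 are among the 3. The third was Rcor3, a CoREST protein, with 163 counts in WT and 432 in KO and a ratio of 1.77 (1.47 to 2.13). Kdm1a, the demethylase LSD1, had 1829 and 3256 counts and a ratio of 1.19, and the CoREST genes Rcor1 and Rcor2 had ratios of 1.02 and 0.724. The histone deacetylases Hdac1 and Hdac2 had ratios of 0.794 and 1.14. The list's median log2 ratio was 0.17.

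Among protein-coding genes with at least 100 normalized counts in the higher library, 582 of 10469 (5.56%) were called higher and 421 (4.02%) lower. The 12 with the highest ratios, ranked by the lower bound of the interval, were St8sia6, Gfi1b, Chrnb2, Timp3, Mfsd2b, Zfp658, Ajuba, Car5b, Gfi1, Lgals1, Atp8b5 and Nxt2. Their ratios ran from 4.27 to 161, and the values are a description since the ratio chose them. St8sia6, a sialyltransferase that modifies surface sugars, had 1 count in WT and 241 in KO, a ratio of 161 (28.6 to 6372), and 211 and 2842 counts in HSCs. Timp3, a secreted inhibitor of metalloproteinases, had 127 and 1067 counts and a ratio of 5.60 (4.66 to 6.79). Its exons overlap those of Syn3 on the other strand, which had 94 counts in WT and 77 in KO. Mfsd2b, which exports sphingosine-1-phosphate from red cells and platelets, had 226 and 1640 counts and a ratio of 4.84 (4.21 to 5.58). Lgals1, the sugar-binding protein galectin-1, had 400 and 2563 counts and a ratio of 4.27 (3.84 to 4.76).

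In the HSC pair, 8 of these 12 genes were also called higher, 3 were not called and 1, Chrnb2, was called lower. Chrnb2, a subunit of the nicotinic acetylcholine receptor, had 7 counts in WT and 129 in KO. It shares exon sequence with Adar on the other strand, which had 2320 and 3292 counts, and whether the counting used strand is not given in the sources used here. Ajuba, a scaffold protein at cell contacts, had 31 and 281 counts, a ratio of 6.04, against 602 and 616 in HSCs. Car5b, a carbonic anhydrase of mitochondria, had 28 and 255 counts, and Zfp658, a zinc finger gene, 13 and 144. Atp8b5, a lipid flippase, had 29 and 227, and Nxt2, a factor of mRNA export, 24 and 188. The last gene within the 12 was Nxt2, with a ratio of 5.22, and the first outside was Lrrc66, with 5.82 and a wider interval.

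**Figure D2:**
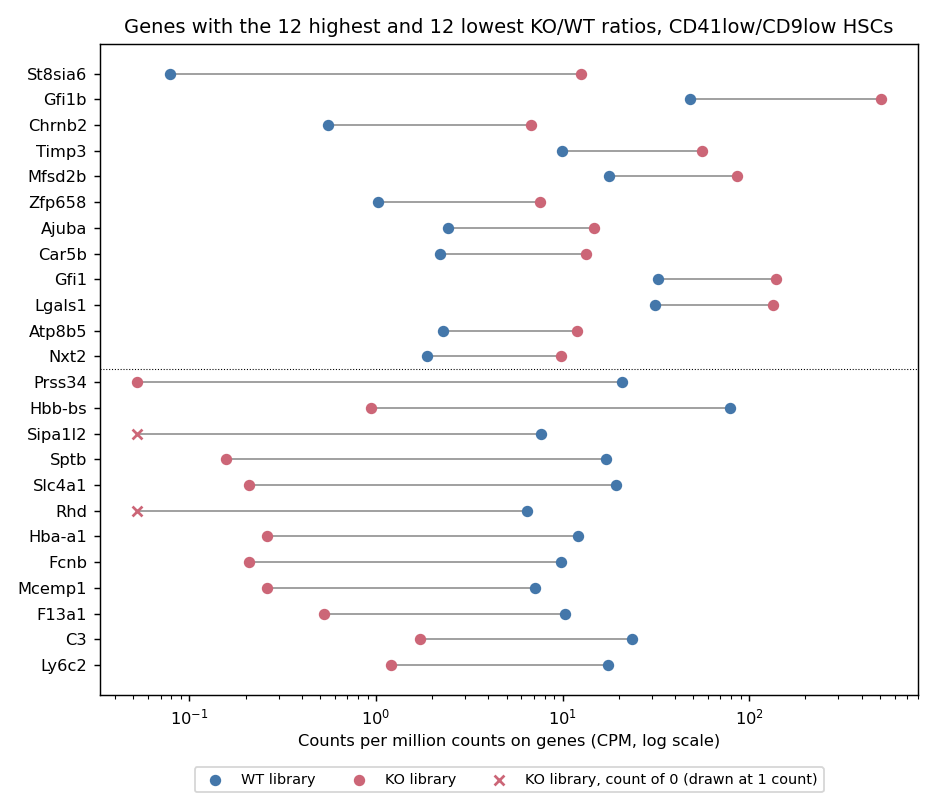
CPM (counts scaled to the library total, log scale) in the WT (blue) and KO (red) library for the 12 protein-coding genes with the highest and the 12 with the lowest KO/WT ratios in CD41low/CD9low HSCs, with a cross for a count of 0, drawn at 1 count. Gfi1b, Gfi1 and Lgals1 lie above 30 CPM in both libraries, whereas St8sia6 and most genes with low ratios are near the floor in 1 of them.

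Of the 52 abundant genes called higher, 24 were called higher and 1 lower in the HSC pair. The shares over all genes there, rare ones included, were 12.6% and 8.48%. Apoe, the lipid carrier apolipoprotein E, had 4405 counts in WT and 20218 in KO and a ratio of 3.06 (2.96 to 3.16). Its ratio in HSCs was 1.5. Itgb3, the integrin subunit that pairs with CD41 on platelets, had 655 and 2689 counts and a ratio of 2.74 (2.51 to 2.99). Cd53, a tetraspanin of leukocytes, had 462 and 1826 counts and a ratio of 2.63 (2.38 to 2.92). F2r, the thrombin receptor PAR1, had 945 and 3458 counts and a ratio of 2.44 (2.27 to 2.62). In HSCs the ratios of these 3 genes were 3.32, 2.81 and 2.89, so they were high in KO in both pairs.

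Vim, which encodes the intermediate filament vimentin, had 3759 counts in WT and 10394 in KO and a ratio of 1.84 (1.78 to 1.91). Galnt6, which starts O-linked sugar chains, had 3277 and 9830 counts and a ratio of 2.0 (1.92 to 2.08). Plek, the platelet protein pleckstrin, had a ratio of 1.76, and Slc18a2, the vesicular monoamine transporter, one of 1.65. Other abundant genes called higher included Gm2a, Psd3, Trim47, Sox6 and Ndrg1, with ratios from 1.82 to 2.05. The call on Rps3a3, with 1201 and 5267 counts, is uncertain because this copy of a ribosomal protein gene shares reads with near-identical sequences, and it was called lower in HSCs.

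The markers used in the sort were present in both libraries. Kit had 13127 counts in WT and 24141 in KO, a ratio of 1.23, and Ly6a (Sca1) had 623 and 976, a ratio of 1.04. Slamf1 (CD150) had 394 and 1169 counts and was called higher, at 1.98 (1.76 to 2.22). Cd48, which was sorted against, had 16 and 42 counts. Itga2b (CD41) had 1737 and 3919 counts and a ratio of 1.5 (1.42 to 1.59), which passed the cutoff by a small margin, and Cd9 had 1385 and 2547 and a ratio of 1.23 (1.15 to 1.31). The transcripts of both gate markers were thus not lower in the KO library.

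Of the 30 genes of the stem cell identity list, 5 were called higher and 0 lower, against 11.8% and 11.3% of all genes. The list's median log2 ratio was 0.09, with 10 intervals wholly above 1 and 11 wholly below 1. Over all genes these shares were 31.1% and 30.4%. Gata2, a transcription factor that stem cells need, had 2541 and 7428 counts and a ratio of 1.95 (1.86 to 2.04), beside 1.98 in HSCs. Procr, the endothelial protein C receptor used to mark stem cells, had 2100 and 4799 counts and a ratio of 1.52. Clca3a1 had 74 and 385 counts and a ratio of 3.47 (2.70 to 4.51). Hlf, Mecom and Meis1, transcription factors of stem cells, were not called, with ratios of 0.75, 0.889 and 1.1, and Cd34 had a ratio of 0.767.

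The transcription factor list had 3 of 28 genes called higher and 5 lower, against 11.8% and 11.3% of all genes. Gata1, the master regulator of red cells and megakaryocytes, had 100 counts in WT and 408 in KO, a ratio of 2.72 (2.18 to 3.42), against 3197 and 2028 in HSCs. Irf4 had 0 and 40 counts. The genes called lower were those of the granulocyte, monocyte and red cell lineages, namely Cebpa, Cebpb, Cebpe, Irf8 and Klf1, with ratios from 0.412 to 0.512. Runx1, Tal1, Fli1, Erg and Myb, which act in stem cells and progenitors, had ratios from 1.13 to 1.22 and were not called.

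The 12 genes with the lowest ratios were mostly genes of mature blood cells, whereas of all 1674 genes called lower, 1605 lie outside the marker lists of other cell types. Ranked among the same protein-coding genes by the upper bound of the interval, the 12 were Prss34, Hbb-bs, Sipa1l2, Sptb, Slc4a1, Rhd, Hba-a1, Fcnb, Mcemp1, F13a1, C3 and Ly6c2, of which 9 belong to those lists. The last gene within the 12 was Ly6c2, with a ratio of 0.0685, and the first outside was Clec12a, with 0.0658 and a wider interval. In bulk RNA, fewer cells of a type and less RNA per cell cannot be told apart. Hbb-bs, an adult beta globin, had 1009 counts in WT and 18 in KO, a ratio of 0.0119 (0.00702 to 0.0189). Slc4a1, the anion exchanger band 3 of red cells, had 246 and 4 counts and a ratio of 0.0108. Prss34, a serine protease of basophils, had 266 and 1 counts and a ratio of 0.00251. Sipa1l2, a relative of Rap GTPase activators, had 98 and 0 counts and was at least 49-fold lower. F13a1, coagulation factor XIII of platelets and monocytes, had 131 and 10 counts, and C3, a complement protein, 301 and 33. In the HSC pair 7 of the 12 were called higher, 2 lower and 3 not called.

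All 28 neutrophil granule genes that passed the filter had ratios below 1, against 49% of all genes. Of them, 22 were called lower and 0 higher, against 11.3% and 11.8% of all genes, with a median log2 ratio of -2.04. Many of these genes encode enzymes and antimicrobial proteins of granulocytes. The list also holds surface receptors and the transcription factor Cebpe, counted above as well. S100a9, a calcium-binding alarmin, had 4626 counts in WT and 1810 in KO and a ratio of 0.261 (0.247 to 0.275). Its partner S100a8 had 2244 and 745 counts. Mpo, myeloperoxidase, had 1540 and 392 counts and a ratio of 0.17 (0.151 to 0.190), Ltf, lactoferrin, 1424 and 425, and Ctsg, cathepsin G, 553 and 74. Lyz2, lysozyme, was not called, with 4691 and 5321 counts and a ratio of 0.756. Summed over all 30 listed genes, the level was 2082 CPM in WT and 865 in KO, whereas the HSC libraries had 948 and 1030. In this sum the WT library stood apart from the other 3, but single genes differed. S100a9 was at 363 CPM in WT and 94.6 in KO, and at 40.6 and 44.4 in HSCs. Mpo was at 121 CPM in WT and 20.5 in KO, and at 174 and 258 in HSCs, where the KO library was the lowest. Ly6g, the lineage marker of mature neutrophils, had 2 and 6 counts.

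The 5 globin genes that passed the filter were all called lower, against 11.3% of all genes, with a median log2 ratio of -2.68. Their sum was 122 CPM in WT and 6.01 in KO, against 8.70 and 24.5 in HSCs, where 3 of 4 were called higher. Reads of globin paralogs cannot be assigned with certainty to 1 copy. The other red cell genes were split, with 12 of 32 called lower and 4 higher, against 11.3% and 11.8% of all genes. Their median was -0.39. Those called lower included the membrane and surface proteins Sptb, Rhd and Ermap, the last 2 with 0 counts in KO, and Car1, a carbonic anhydrase. Those called higher were Gata1, Epor, Icam4 and Rhag. Epor, the erythropoietin receptor, had 49 and 205 counts and a ratio of 2.79. The summed level of these genes, 1361 CPM in WT and 1237 in KO, was close in both libraries, with most of it from Car2 at 9700 and 13475 counts.

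Of 16 monocyte, macrophage and dendritic cell genes past the filter, 12 were called lower and 0 higher, against 11.3% and 11.8% of all genes. Their median was -1.49. Csf1r, the receptor of macrophage colony-stimulating factor, had 102 and 26 counts, and Ly6c2, an antigen of inflammatory monocytes, 224 and 23. The summed level was 147 CPM in WT and 83.9 in KO, and 100.1 and 123 in HSCs. Cd209a, Ccr9 and Lyz1 had 0 counts in both libraries. These myeloid and globin markers were at higher levels in the WT library, beside which the genes called lower in KO were measured. Their part in those results was not tested.

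The granulocyte genes of mast cells, basophils and eosinophils did not move together. Of 17 past the filter, 7 were called higher and 5 lower, against 11.8% and 11.3% of all genes. The median abundance of the 17 was 72.1 normalized counts. Between 50 and 100 normalized counts, 21.6% of all genes were called higher and 24.6% lower. Those called lower were Prss34, as above, Mcpt8 at 68 and 0 counts, Ms4a2 at 58 and 10, Hdc at 99 and 30 and Ccl3 at 36 and 19. Those called higher were Epx, Prg3, Ear1, Ear6, Il5ra, Cpa3 and Gata2, of which Cpa3, a carboxypeptidase of mast cells, had 17 and 65 counts. Of genes of eosinophil granules, Epx, eosinophil peroxidase, had 182 and 515 counts and a ratio of 1.89, and Prg3 had 26 and 140 and a ratio of 3.59. Prg2, the major basic protein, had 840 and 1850 counts and a ratio of 1.47, just below the cutoff. In HSCs the ratios of these 3 genes were 0.56, 0.529 and 0.627. The tryptases Tpsb2 and Tpsab1 had 0 counts in both libraries.

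Several lymphoid markers had 0 counts in both libraries while others were detected, and the stromal list was carried by a few genes. Over all genes, 11.3% were called lower and 11.8% higher. Of 27 B and plasma cell genes, 9 passed the filter, 4 were called lower and 1 higher, and Cd79a, Ms4a1, Ebf1 and Pax5 had 0 counts in both libraries. Of 30 T and NK cell genes, 9 passed, 2 were called lower and 2 higher, and Cd3d, Cd3e, Cd3g and Cd8a had 0 counts in both. Cd4 was called lower, with 95 and 40 counts, and Cd247 higher, with 57 and 165. Cd247 shares exon sequence with Gm16565, so its counts are uncertain. Nkg7, a granule protein of NK cells that other blood cells also make, had 128 and 589 counts and a ratio of 3.07. Of 24 genes of stroma and endothelium, 12 passed, 2 were called lower and 2 higher, and Cdh5 had 0 counts. Cxcl12, the chemokine of marrow stroma, had 60 counts in WT and 0 in KO. The summed levels of the B cell list were 82.7 and 75.1 CPM, of the T and NK list 76.2 and 95.3, and of the stromal list 452 and 421. Of the stromal sum, most came from Tie1, a receptor kinase of endothelium and stem cells, at 3679 and 5337 counts, and Runx2, at 1303 and 1577.

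**Figure D3:**
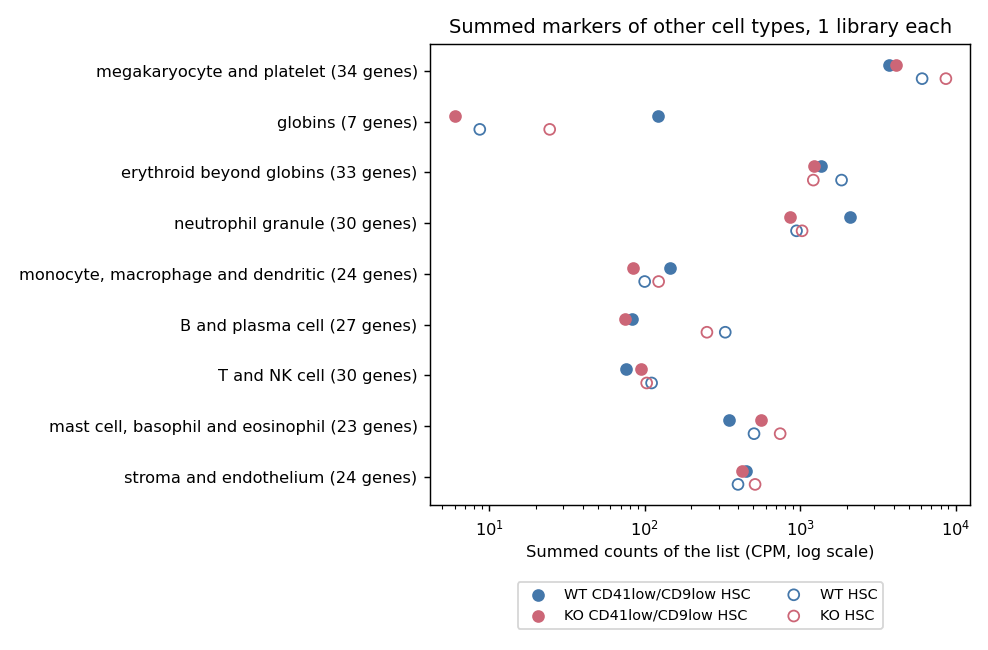
Summed CPM (counts scaled to the library total, log scale) of the marker lists of 9 other cell types in the 4 libraries, with filled points for CD41low/CD9low HSCs and open points for HSCs, blue for WT and red for KO. The WT CD41low/CD9low library is highest for globins, at 122 CPM, and for neutrophil granule genes, at 2082 CPM, while the megakaryocyte list is lower in both CD41low/CD9low libraries than in both HSC libraries.

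The megakaryocyte and platelet list had 8 of 33 genes called higher and 5 lower, against 11.8% and 11.3% of all genes. Its median was 0.08. Its sum was 3726 CPM in WT and 4128 in KO, below the 6092 and 8664 of the HSC libraries. Beside Itgb3, Plek and Itga2b, the genes called higher were Treml1, Gp5, Gp1ba, Gp1bb and Serpine2. Treml1, a receptor of platelet granules, had 146 and 445 counts and a ratio of 2.03, and Gp1bb, a chain of the von Willebrand factor receptor, had 0 and 61 and was at least 13.6-fold higher. Gp1bb overlaps Sept5 on its own strand, so its counts are uncertain. Genes called lower were F13a1, Slc35d3, Selp, Thbs1 and Tubb1. Selp, P-selectin, had 297 and 182 counts and a ratio of 0.409, and Tubb1, the tubulin of platelets, 54 and 22. Gp1bb and Tubb1 lie between 20 and 50 normalized counts, where 21.2% of all genes were called higher and 35.3% lower. Pf4, Gp9 and Vwf were not called, with ratios of 0.922, 1.06 and 0.61.

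Integrins and tetraspanins bind cells to matrix and organize surface receptors. Of 21 integrin subunits past the filter, 9 were called higher and 3 lower, against 11.8% and 11.3% of all genes. Among the 9, Itgae with 0 and 32 counts, Itga10 with 0 and 21 and Itgad with 1 and 15 lie in the range of abundance where 36.5% of all genes were called higher. Besides Itgb3 and Itga2b, Itgb2, the common chain of leukocyte integrins, had 555 and 1411 counts and a ratio of 1.69, and Itga2, a collagen receptor chain, 49 and 158. Itgb5 was called lower, with 183 and 57 counts and a ratio of 0.208 (0.151 to 0.281). The abundant chains Itga4, Itga6 and Itgb1 had ratios of 0.96, 1.05 and 1.02. Of 22 tetraspanins, 4 were called higher and 0 lower. Among the 4, Tspan12 with 0 and 28 counts and Tspan7 with 0 and 14 lie in that same range, and both were called lower in HSCs. Tspan2 had 74 and 366 counts and a ratio of 3.30 beside 3.64 in HSCs. Of the 41 genes of adhesion and the platelet cytoskeleton, 1 was called higher and 6 lower.

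Of 26 receptors of growth factors and cytokines, 8 were called lower and 2 higher, against 11.3% and 11.8% of all genes, and the median was -0.16. Among those called lower, Il7r with 13 and 0 counts and Lepr with 12 and 0 lie in the range of abundance where 32.7% of all genes were called lower. Flt3, the receptor that marks the loss of long-term stem cell function as progenitors form, had 1797 counts in WT and 1073 in KO, a ratio of 0.398 (0.369 to 0.43), against 1.1 in HSCs. Il1r1, an interleukin-1 receptor, had 351 and 115 counts, and Il18r1 48 and 1. Both were also called lower in HSCs. Csf2rb2, a chain of the interleukin-3 receptor, had 249 and 212 counts and a ratio of 0.568, against 5.73 in HSCs. Il3ra, another chain of that receptor, had 168 and 423 counts and was called higher with Epor. Cd244a, a SLAM receptor that marks multipotent progenitors, had 125 and 64 counts and a ratio of 0.341, and in the SLAM list it and Slamf8 were called lower and Slamf1 higher, of 6.

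Genes of DNA replication were lower in KO almost throughout, by a small amount. Of 48, 44 had a ratio below 1 and 42 an interval wholly below 1, against 49% and 30.4% of all genes, and ratios below 1 were found for 46.6% of genes with a mean of at least 1000. Only 4 passed the cutoff of 0.6 and 0 were called higher, and the list's median log2 ratio was -0.30, beside -0.34 in HSCs. The helicase genes Mcm2 to Mcm7 had ratios from 0.724 to 0.876. Pcna, the sliding clamp, had 2825 and 2892 counts and a ratio of 0.682. Orc1, of the origin recognition complex, had 264 and 65 counts and a ratio of 0.164 (0.123 to 0.216), and Gins1 350 and 170 and a ratio of 0.324. Cdc45 and Tk1 had ratios of 0.561 and 0.546. Orc1 shares exon sequence with Gm12743 on the other strand, which had 64 and 11 counts. Cdc45 does so with Ufd1, which had 606 and 1228.

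Mitosis genes were shifted likewise. Of 42, 34 had a ratio below 1 and 30 an interval wholly below 1, 4 were called lower and 0 higher, and the median was -0.35, beside -0.50 in HSCs. Mki67 had 4000 counts in WT and 4363 in KO and a ratio of 0.727, and Top2a, a topoisomerase, 6275 and 6945 and a ratio of 0.738. Bub1, a kinase of the spindle checkpoint, had 433 and 263 counts and a ratio of 0.405 (0.346 to 0.473), and Aurka, a spindle kinase, 407 and 296. Mad2l1 and Pttg1 had ratios of 1.39 and 1.40. Of 56 histone genes of the replication clusters, 47 had ratios below 1, with a median of -0.23. Their calls were balanced, with 5 called higher and 5 lower. The G1 list of cyclins, kinases and inhibitors had 2 of 24 called lower and 1 higher, against 11.3% and 11.8% of all genes. Cdkn1a, the inhibitor p21, had 33 and 6 counts.

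Cholesterol genes went the other way. Of 32 genes of synthesis and uptake, 9 were called higher and 1 lower, against 11.8% and 11.3% of all genes, and 18 intervals lay above 1, against 31.1%. Ratios above 1 were found for 23, against 51% of all genes and 53.4% of those with a mean of at least 1000. The list's median log2 ratio was 0.17. Sqle, squalene epoxidase, had 434 and 1122 counts and a ratio of 1.72 (1.54 to 1.93), and Hmgcs1, an early enzyme of the mevalonate pathway, 530 and 1354 and a ratio of 1.70 (1.54 to 1.89). Insig1, which retains the sterol sensor in the endoplasmic reticulum, had 777 and 1911 counts and a ratio of 1.64. The enzyme genes Idi1, Fdps, Cyp51 and Msmo1 were also called higher. Nr1h3, a nuclear receptor for oxysterols that macrophages express, was the gene called lower. In HSCs 0 of 32 were called in either direction, the median was -0.20 and the ratios of Sqle, Hmgcs1 and Insig1 were 0.713, 0.862 and 0.846.

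**Figure D4:**
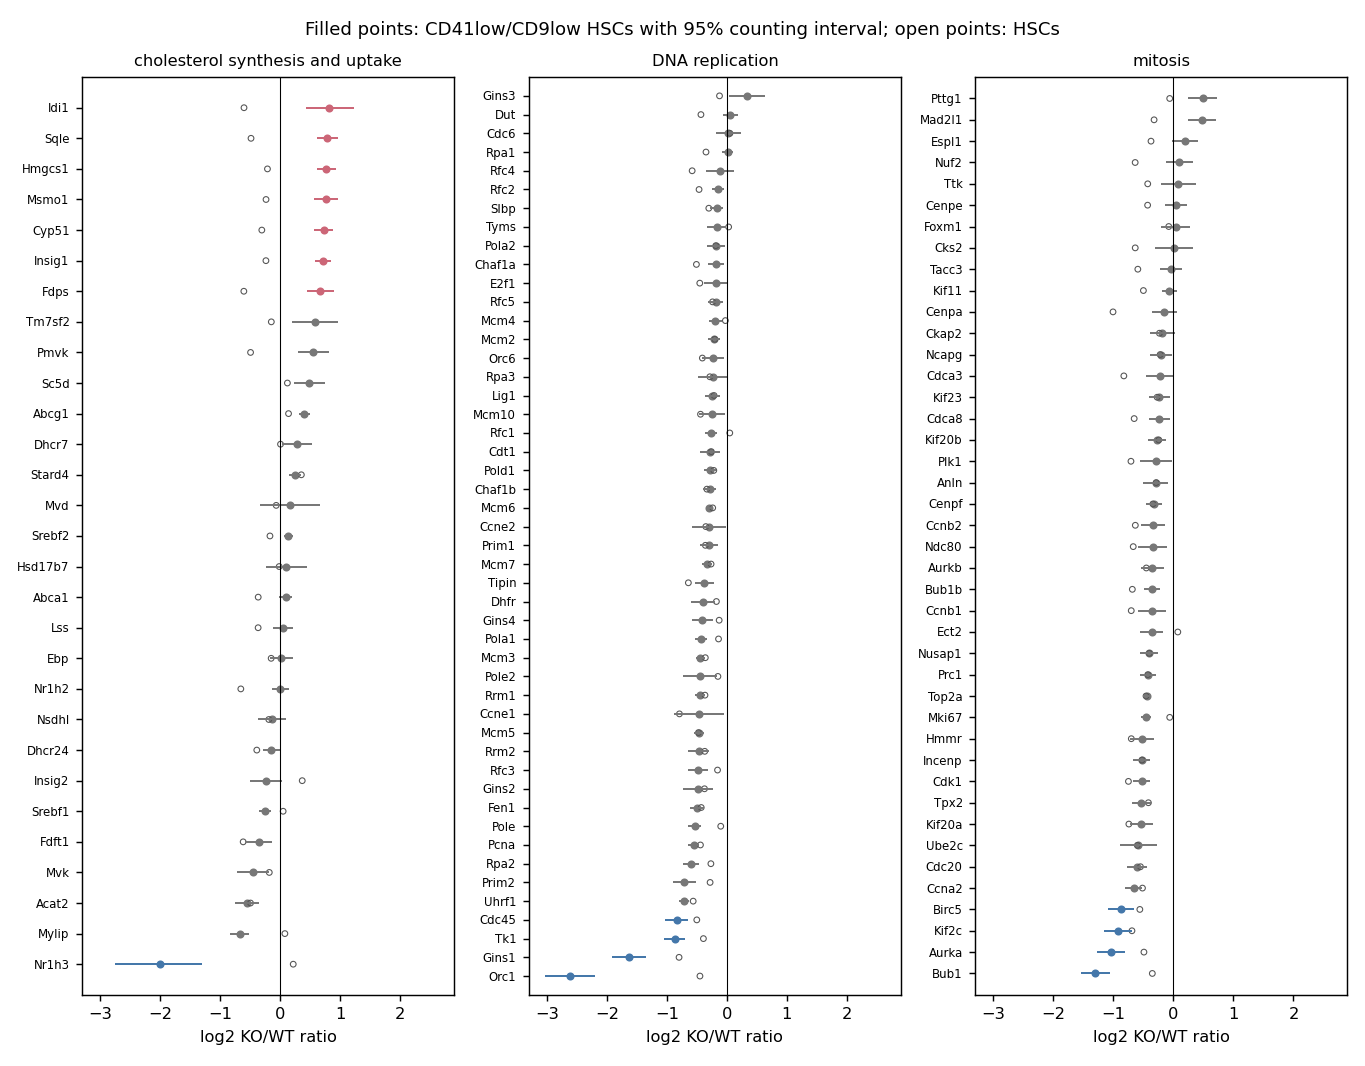
log2 KO/WT ratio of the genes of 3 lists, 3 cholesterol genes left out, in CD41low/CD9low HSCs (filled points, bars for the 95% counting interval, red called higher, blue called lower, grey not called) and in HSCs (open points). Most replication and mitosis genes lie left of 0 in both pairs, and most of the cholesterol genes drawn lie right of 0 in CD41low/CD9low HSCs.

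Genes of the Wnt pathways, on which the study centred, are set beside the shares of all genes, 11.8% called higher and 11.3% lower. Of 17 receptors past the filter, 2 were called higher and 2 lower, with Fzd1 at 28 and 146 counts and Fzd4 at 67 and 35. Of 34 genes of beta-catenin, its destruction complex and its Tcf/Lef and Groucho partners, Dvl2, an adaptor of the receptors, was called higher, with 633 and 1561 counts and a ratio of 1.64, and 2 were called lower. Dvl2 shares exon sequence with Acadvl on the other strand. Of 20 canonical target genes, 2 were called higher and 5 lower, among them Plaur, the urokinase receptor, with 177 and 153 counts and a ratio of 0.576. Id2, an inhibitor of basic helix-loop-helix factors, had 74 and 9 counts, and Vegfa, an endothelial growth factor, 522 and 396 and a ratio of 0.506. Of 36 genes of planar polarity and Wnt/calcium signaling, 0 were called higher and 4 lower. Wnt10b, the ligand called higher, had 1 count in WT and 45 in KO.

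Signaling lists are given by their calls, with the same shares of all genes as background, 11.8% higher and 11.3% lower. Of 26 genes of the Jak and Stat pathway, 4 were called higher and 0 lower, among them Tyk2, a kinase of interferon receptors, with a ratio of 1.58, and Stat2, with 1.53. Of 49 interferon-stimulated genes, 5 were called higher and 3 lower. Of 29 genes of TGF-beta and BMP signaling, 3 were called higher and 2 lower, and Tgfbr3, a coreceptor, had 1559 and 3516 counts and a ratio of 1.5. Of 32 immediate-early genes, 3 were called higher and 4 lower. Of 16 genes of MAPK feedback, 2 were called higher and 3 lower, with Spry1 at 209 and 159 counts and a ratio of 0.507. Bcl2l11, the proapoptotic protein Bim, had 163 and 490 counts and a ratio of 2.0, and in HSCs 2.02. Of 18 prostaglandin genes, 15 had ratios below 1 and 2 were called lower.

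Of 16 imprinted growth regulators, 6 were called lower and 1 higher, against 11.3% and 11.8% of all genes. Their median of -0.38 moved to -0.048 over the 11 genes with at least 50 counts, and Nnat with 12 and 1 counts and Mirg with 0 and 22 were among the called genes. Meg3, a long noncoding RNA of the Dlk1 locus, had 356 and 178 counts and a ratio of 0.333 (0.277 to 0.4), beside 0.389 in HSCs. H19 had 106 and 21 counts and a ratio of 0.132, beside 0.467 in HSCs. Xist, which silences 1 X chromosome in females, had 1850 and 5064 counts and a ratio of 1.82, while the Y-linked genes Kdm5d, Uty, Ddx3y and Eif2s3y had ratios from 0.791 to 1.0. Transcripts of both sexes were thus present in both libraries. In HSCs, Xist was at 1705 CPM in WT and 1590 in KO, against 145 and 265 in CD41low/CD9low HSCs. The same Y-linked genes had ratios from 3.07 to 4.51 in HSCs and were all called higher. Whether the mix of sexes differed between libraries was not tested.

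Of the 23 Hox, Meis and Pbx genes past the filter, 3 were called lower and 1 higher, against 11.3% and 11.8% of all genes. Hoxb8 had 20 and 8 counts and Meis3, a Meis relative, 53 and 34. Of 26 targets of p53, 3 were called in each direction. Gadd45a, a stress sensor of the DNA damage response, had 88 and 324 counts and a ratio of 2.45 (1.93 to 3.14), against 0.743 in HSCs, and Plk2, a polo-like kinase, 185 and 68 and a ratio of 0.245 (0.183 to 0.325), against 0.127 in HSCs. Plk2 was thus called lower in both pairs. Of 22 genes of the Bcl2 family and inhibitors of apoptosis, Bcl2l11 was called higher and 3 lower, among them Bmf, a proapoptotic relative, with 200 and 175 counts and a ratio of 0.583.

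Calls in the inflammation and stress lists are set beside the shares of all genes, 11.8% called higher and 11.3% lower. Of 26 genes of NF-kB and its feedback, 2 were called higher and 3 lower. Bcl3, a nuclear cofactor of NF-kB, had 174 and 107 counts and a ratio of 0.41. Il1b, interleukin-1 beta, had 35 counts in WT and 0 in KO, and Tnf 0 and 29. Of 23 heat shock genes, 2 were called higher and 1 lower, and Hspe1, which overlaps Hspd1, passed the cutoff by a small margin. Of 30 genes of antigen presentation, 1 was called higher and 2 lower, with the class II invariant chain Cd74 at 1554 and 1287 counts and a ratio of 0.552 (0.512 to 0.595) and the class II chain H2-Eb1 at 483 and 371 and a ratio of 0.512 (0.446 to 0.587). Both are proteins that B cells and dendritic cells make in quantity.

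Of 23 regulators of G protein signaling, 2 were called higher and 4 lower, against 11.8% and 11.3% of all genes. Gna11, a G protein alpha subunit, had 283 and 706 counts and a ratio of 1.66, and Rgs10 had 56 and 25 and a ratio of 0.298, against 2.59 in HSCs. Of 32 antioxidant genes, 2 were called in each direction. Gstm1, a glutathione transferase, had 699 and 1604 counts and a ratio of 1.53 (1.4 to 1.67), beside 1.9 in HSCs. Of 8 mitochondrially coded genes past the filter, mt-Atp6 was called lower, with 15 and 0 counts, and the median was -0.18, against 0.47 in HSCs.

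Lists of housekeeping and metabolic genes held few calls, and so did abundant genes of any kind. Among all genes with a mean of at least 1000 normalized counts, 1.28% were called higher and 0.296% lower. Between 500 and 1000 the shares were 3.25% and 0.954%. The median abundance of the lists below ran from 771 normalized counts for the Myc network to 11289 for ribosomal protein genes. Of 83 cytosolic ribosomal protein genes, 1 was called higher, the low-count Rpl39l, and 0 lower, and the median was -0.02. Of 75 nuclear genes of oxidative phosphorylation, 2 were called higher and 0 lower, with a median of -0.06. Of 26 epigenetic regulators, Men1 alone was called, with 645 and 1509 counts and a ratio of 1.56, and Dnmt1 had a ratio of 0.854. Of 11 genes of the Myc network, 0 were called in either direction, with ratios from 0.752 to 1.35. Glycolysis genes had 1 of 29 called in each direction and a median of -0.14, and genes of the unfolded protein response had 1 of 37 called higher and 3 lower and a median of -0.21, with the chaperone Hspa5 at a ratio of 0.743. In these last lists, 18 of 29 and 23 of 37 intervals lay wholly below 1, against 30.4% of all genes.

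**Figure D5:**
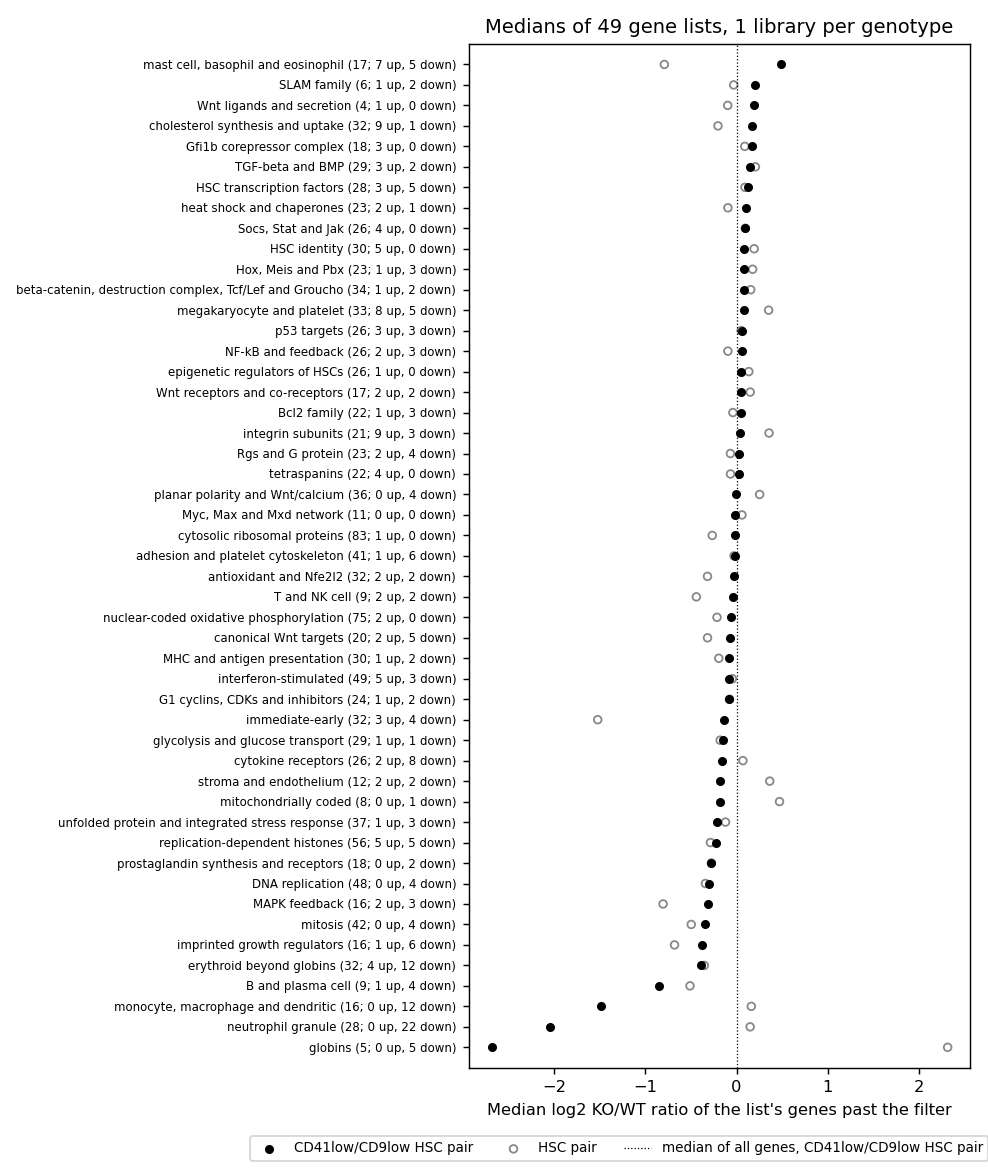
Median log2 KO/WT ratio (horizontal) of 49 gene lists in CD41low/CD9low HSCs (filled) and in HSCs (open), with the number of genes past the filter and the numbers called higher (up) and lower (down) in CD41low/CD9low HSCs beside each name. Globins at -2.68, neutrophil granule genes at -2.04 and monocyte genes at -1.49 lie farthest from the dotted median of all genes, and most other lists lie within 0.40 of it.

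Side by side with the HSC pair, 391 genes were called higher in both, which is 25.8% of the 1513 genes called higher in CD41low/CD9low HSCs and measured in HSCs, and 19.5% of the 2007 called higher in HSCs. Over all genes of the HSC pair, at any abundance, 12.6% were called higher and 8.48% lower. In HSCs 150 of the 1513 (9.91%) were called lower. For genes called lower, 292 were shared, or 20.5% of 1422 and 21.6% of 1349, and 245 of the 1422 (17.2%) were called higher in HSCs, against 12.6% of all genes there. The difference between the populations could not be tested with 1 library each.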

How the data were processed

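RNA of sorted CD41low/CD9low HSCs and HSCs was sequenced with a stranded mRNA kit. Per the labels and the methods, the authors aligned reads to mm10 with TopHat2 2.0.10, processed them with SAMtools and counted them with HTSeq, and deposited raw counts per Ensembl gene. The annotation release, the HTSeq version and its strand setting are not given in the sources used here. Beside the genes marked above, Rcor3, Sptb, Csf1r and Gadd45a also share exon sequence with a gene on the other strand. Lines for unassigned reads were left out of totals (62.0 and 60.1 reads with no feature per 100 counts in the WT and KO library of CD41low/CD9low HSCs).

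Symbols and positions came from GENCODE M21, which named all but 874 of 41214 IDs. Ratios used size factors and the exact interval described above (Python 3.11.15, scipy 1.17.1), and edgeR 4.0.16 gave TMM factors for an alternative. The calling script was run on simulated counts with known changes before use, as a check of the code and not of the calls. Named genes were Gfi1b, the sort markers, the 12 highest and 12 lowest ratios, and up to 4 called members of each list, or the 2 most abundant where fewer than 2 were called. Others, among them abundant genes, were named after their values were seen. The members and the 49 lists were chosen with earlier results of these data known, and Uprt and Angpt1 were taken out of the tetraspanin and receptor lists as misplaced after values were seen. Alternatives varied the scaling, filters, cutoffs, pseudocount and exon length. Some members of the lists are counted in them but not reported here by name.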

Additional observations from a re-analysis of the deposited data

Results flagged for a closer look

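Of the genes with the 12 highest and 12 lowest ratios, 8 were called in opposite directions in CD41low/CD9low HSCs and in HSCs. The difference was not tested, since each population has 1 library per genotype. Taking the log2 KO/WT ratio of CD41low/CD9low HSCs and subtracting the HSC value gave -9.60 for Prss34, -9.34 for Hbb-bs, -7.33 for Slc4a1, -7.21 for Hba-a1, -6.18 for Fcnb, -5.19 for F13a1 and -4.48 for Ly6c2. These 7 genes were low in KO in CD41low/CD9low HSCs and high in KO in HSCs, and all are markers of mature blood cells. For Chrnb2 the result was 4.36, with few counts in the WT library.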

How the results depend on the processing

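No paired analysis was possible because each group holds 1 library, and for the same reason no library could be left out in turn. The numbers of genes called depended on abundance. With at least 50 counts required in 1 library, 967 genes were called higher and 702 lower. With a mean of at least 1000 normalized counts, a setting chosen after seeing the data, 52 were called higher and 12 lower. Without the genes of the marker lists of other cell types, also chosen after seeing the data, 1732 were called higher and 1605 lower. Other scalings moved the median log2 ratio of all genes by less than 0.01. The Gfi1b ratio ran from 10.6 to 10.7 over 6 alternatives. Of the medians of the 49 lists, those of globins (-5.53) and of imprinted growth regulators (-0.048) moved beyond the members' counting error, both with at least 50 counts, where 3 and 11 genes were left. The sign of the median was not kept under every alternative for integrins, T and NK cell genes, Wnt ligands and ribosomal protein genes, all near 0 or with few genes. No called gene among those named by the rule changed direction. With 1 library per genotype, the spread between replicates at low counts is unknown.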
